A study of Homo sapiens with 12 samples.

Results

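The 45 genes described here encode ribosome biogenesis factors, the proteins that transcribe, modify, cut and assemble the ribosome's RNA before it leaves the nucleus as part of a subunit. They were chosen by name, as nucleolar, rRNA processing and RNA polymerase I genes, with earlier results of these data known. All 45 were found in the expression tables among 26364 listed genes, and all 45 passed the level filter that left 11964 genes for testing. The libraries came from an immortalised human mammary epithelial cell line, HMLE, in a pair of derivatives. HMLE-Twist, named for the transcription factor that drives an epithelial-mesenchymal transition (EMT), carries the label EMT, and HMLE-pBp carries the label nonEMT. Each derivative received either DMSO (mock) or 0.2 µM salinomycin, a polyether ionophore that carries alkali cations across membranes, for 24 h. Both were grown in the same mixed epithelial medium with serum, insulin and hydrocortisone. With 3 biological replicates in each of 4 groups there were 12 poly(A) RNA-seq libraries. Whether each derivative is a clone or a pool, and how Twist is driven, is not given in the sources used here.

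Ribosome production starts in the nucleolus, where RNA polymerase I copies the rDNA into one long precursor. Small nucleolar ribonucleoproteins (snoRNPs) guide chemical modification of that precursor, the box C/D type placing 2′-O-methyl groups and the H/ACA type converting uridine to pseudouridine. The small subunit (SSU) processome folds and cuts the part that becomes the 40S subunit, a separate set of factors builds the 60S subunit, and late factors finish both in the nucleoplasm and cytoplasm. The pathway is a large consumer of energy in growing cells, many of its genes are known targets of MYC, and several of its proteins also act in p53 control.

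Libraries held 17.7 to 26.4 megareads recovered over the listed genes. The markers of the 2 lines matched their labels. Over 6 epithelial genes the summed level was 2.005 to 7.38 FPKM (fragments per kilobase of gene length, scaled for library depth) in the HMLE-Twist libraries and 2084 to 2773 in the HMLE-pBp libraries. Over 6 mesenchymal genes it was 3067 to 4900 and 263 to 308 FPKM. Of 3 leukocyte markers, PTPRC and CD3E were at or below 0.0294 FPKM in every library, and CD68 made up nearly all of the list's 10.0 to 39.9 FPKM. Summed over the 3 of 4 endothelial markers that could be used, the level did not pass 0.622 FPKM. On the third principal component HMLE-Twist mock replicate 1 and HMLE-pBp salinomycin replicate 1 had the highest values, 27.7 and 19.5, and HMLE-Twist salinomycin replicate 3 the lowest, -22.4. Counts are given below without the first 2 together and without each library alone. The mock tables held FPKM and the salinomycin tables shrunken log2 values, so reads were recovered from both and put on one scale set by the median gene. Every difference between treatments rests on that recovery. In such bulk samples fewer cells of a type and less RNA per cell cannot be told apart, and a change shared by all RNA is removed by the scaling.

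The start regions of the members carried the CACGTG E-box, the 6-base palindrome bound by MYC with MAX and by other basic helix-loop-helix factors, more often than other genes did. RefSeq windows of 300 bases, 250 before to 50 after an annotated start (GRCh38.p14), were at hand for 41 of the 45 members, and BOP1, NOLC1, NOP58 and RRS1 had none. The letters CACGTG stood in the windows of 17 of the 41 members, 41.5%, against 12.6% of 8956 tested genes and 8.77% of 27305 genes with a window. Both strands are covered because the motif is its own reverse complement. Of the 19 sites, 17 began within 40 bases of the start, 12 of them after it. The sites of 8 members are shown with 12 bases on each side, because these genes carry the results below or hold the motif close to their start. They are read 5′ to 3′ on the gene's strand, with the E-box in capitals.

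MYBBP1A, chr17:4555340-4555369, strand -: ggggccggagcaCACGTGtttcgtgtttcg
GNL3, chr3:52686026-52686055, strand +: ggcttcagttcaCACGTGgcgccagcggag
PES1, chr22:30591880-30591909, strand -: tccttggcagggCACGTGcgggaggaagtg
BYSL, chr6:41921515-41921544, strand +: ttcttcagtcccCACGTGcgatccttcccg
FBL, chr19:39846356-39846385, strand -: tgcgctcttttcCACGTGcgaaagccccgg
RRP9, chr3:51941892-51941921, strand -: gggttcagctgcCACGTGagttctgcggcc
WDR43, chr2:28894658-28894687, strand +: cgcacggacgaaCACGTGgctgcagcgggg
UTP20, chr12:101280083-101280112, strand +: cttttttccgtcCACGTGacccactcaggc

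In these sites the E-box began at position 28 after the start in MYBBP1A, 7 in GNL3 and FBL, 14 in PES1, 29 in BYSL and 4 in WDR43, counting the start as position 1. It began 5 bases before the start in RRP9 and 10 bases before it in UTP20. NOP10 held one E-box 170 bases and another 11 bases before its start, and its whole 250-base stretch before the start is shown because no other member had a pair there.

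NOP10, chr15:34343137-34343386, strand -: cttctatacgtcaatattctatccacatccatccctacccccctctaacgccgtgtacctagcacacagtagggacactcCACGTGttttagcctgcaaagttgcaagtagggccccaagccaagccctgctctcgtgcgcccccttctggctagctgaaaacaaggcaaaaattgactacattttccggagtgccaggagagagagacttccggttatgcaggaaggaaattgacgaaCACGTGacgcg

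Other motifs searched on both strands were the GC box, the ETS core and the TATA box. GGGCGG, the GC box, was present for 33 of 41 members, 80.5%, and for 78.0% of tested genes. CCGGAAG, the ETS core, was present for 16 members, 39.0%, against 23.0% of tested genes. A TATA box, TATAAA, was present for 2 members, 4.88%, against 7.87%. No member window held overlapping matches of a pair of these motifs. A match is a description of letters and not a measured binding site, and UTP18, like NOP10, held the E-box at a pair of places.

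The members spanned a wide range of levels. NPM1, a nucleolar chaperone also called nucleophosmin, had the highest group mean in every group, at 1020.1, 885.5, 1259 and 1166 FPKM in HMLE-Twist mock, HMLE-Twist salinomycin, HMLE-pBp mock and HMLE-pBp salinomycin. NCL (nucleolin) and NOP10 followed in that order in every group. The median member stood at 26.0 FPKM in HMLE-Twist mock, 26.7 in HMLE-Twist salinomycin, 32.6 in HMLE-pBp mock and 27.5 in HMLE-pBp salinomycin. PPAN, a 60S factor, was lowest, with a group mean of 1.46 to 2.68 FPKM. PPAN shares its exons with the readthrough gene PPAN-P2RY11, which the tables list separately, so its low level may hold only some of its reads. Reads of NPM1 and RRN3 can also be split with near-identical pseudogenes, and their values are uncertain in that respect. The gene lengths behind the FPKM of NCL, NPM1, WDR12, RRP1, UTP6, POLR1A and POLR1C were 0.282 to 0.683 of the reference length. That length is the merged exons of a gene's reference transcripts. The length of DKC1 was 1.47 of it. The rank of these genes thus depends on the isoforms counted, and the differences between groups do not.

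**Figure D1:**
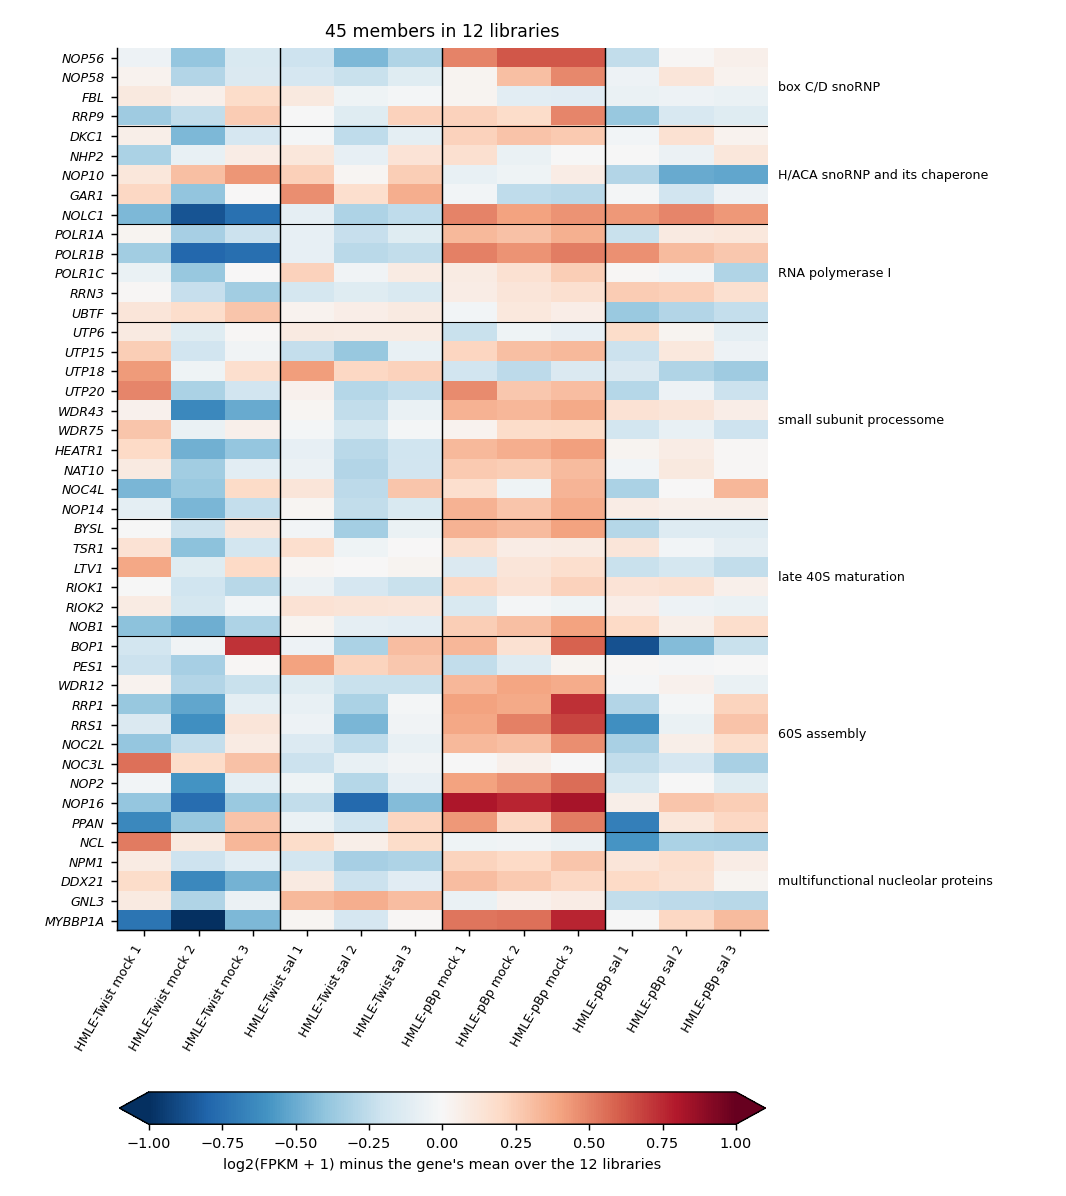
Each cell is 1 of the 45 members (rows, by role) in 1 of the 12 libraries (columns, by group and replicate), coloured by log2(FPKM + 1) minus that gene's mean over all libraries. The HMLE-pBp mock block is the reddest, with NOP16 and MYBBP1A high in all 3 of its libraries, and the HMLE-Twist mock block holds the lowest values of NOLC1, POLR1B and MYBBP1A.

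Salinomycin moved the members in unlike ways in the 2 lines. In HMLE-pBp 13 of 45 members fell and none rose (limma, adjusted p under 0.05), where 9.3% of all tested genes fell and 9.65% rose. The member median there was -0.26 log2 units against -0.01 for all genes, and 38 of 45 members were below 0. At an unadjusted p under 0.05, 24 members were lower there and 0 higher, against 17.9% and 16.8% of tested genes, and limma-voom on the recovered reads called 15 lower and 0 higher, against 9.29% and 9.33%. In HMLE-Twist 6 members rose and 1 fell, where 12.8% of tested genes rose and 13.6% fell, and the member median was 0.04 against -0.01. The count of rises in HMLE-Twist is close to its background share, that of falls in HMLE-Twist is below its share, and that of falls in HMLE-pBp is above its own. Differences are given throughout as salinomycin minus mock on the log2(FPKM + 1) scale, with limma's standard error and 3 libraries per group.

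The replicate numbers tied libraries of one line together across treatments, so both responses were also fitted with the number as a block within each line. In that fit 23 members fell in HMLE-pBp and none rose, against 19.3% and 17.3% of tested genes, and in HMLE-Twist 8 rose and 2 fell, against 19.7% and 20.9%. By raw values, all 3 salinomycin libraries lay below all 3 mock libraries for 30 members in HMLE-pBp, where 21.1% of tested genes did so. None lay wholly above, against 20.5% of tested genes. In HMLE-Twist 7 members lay wholly above and 2 wholly below their mock libraries, against 19.1% and 21.1% of tested genes.

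Library composition moved with these values. The members' deviations from their group mean correlated with the GC content of their transcripts by r = -0.75 in HMLE-Twist mock replicate 1 and r = 0.83 in HMLE-Twist mock replicate 3 (n = 45 members of 1 library each, a description). After the GC trend of each library was removed over 10776 genes, 25 members fell and none rose in HMLE-pBp, against 16.7% and 15.4% of the genes, and 9 rose and 3 fell in HMLE-Twist, against 17.1% and 19.5%. The HMLE-pBp member median was -0.32 on these values, lower than without the correction. This correction was chosen after seeing the data. Proliferation genes also moved with salinomycin: of 8 listed, 5 fell in HMLE-Twist and 3 in HMLE-pBp, and none rose in either. Their part in the members' changes was not tested.

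Single libraries weighed on the HMLE-pBp count, and on the falls over all genes beside it. With all 12 libraries 13 members fell, beside 1113 of 11964 tested genes. The count was 5 falls without HMLE-pBp mock replicate 3 (457 of 11923 genes) and 7 without HMLE-pBp salinomycin replicate 1 (549 of 11936). It was 8 without HMLE-pBp mock replicate 2 (584 of 11931) or HMLE-pBp salinomycin replicate 2 (849 of 11940). Without HMLE-Twist mock replicate 1 it was 23 (1601 of 11912), and without HMLE-Twist salinomycin replicate 3 it was 11 (917 of 11925). Without HMLE-Twist mock replicate 1 and HMLE-pBp salinomycin replicate 1 together it was 14 (1061 of 11885). The falls of NOP56, WDR12, UBTF, BYSL and NOP16 were kept whichever of the 12 libraries was left out. In HMLE-Twist the count of changed members rose from 7 (3164 of 11964 tested genes called) to 12 without HMLE-Twist mock replicate 1 (3290 of 11912). It was 13, 12 of them higher, without that library and HMLE-pBp salinomycin replicate 1 together (3920 of 11885 genes, 1967 higher).

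**Figure D2:**
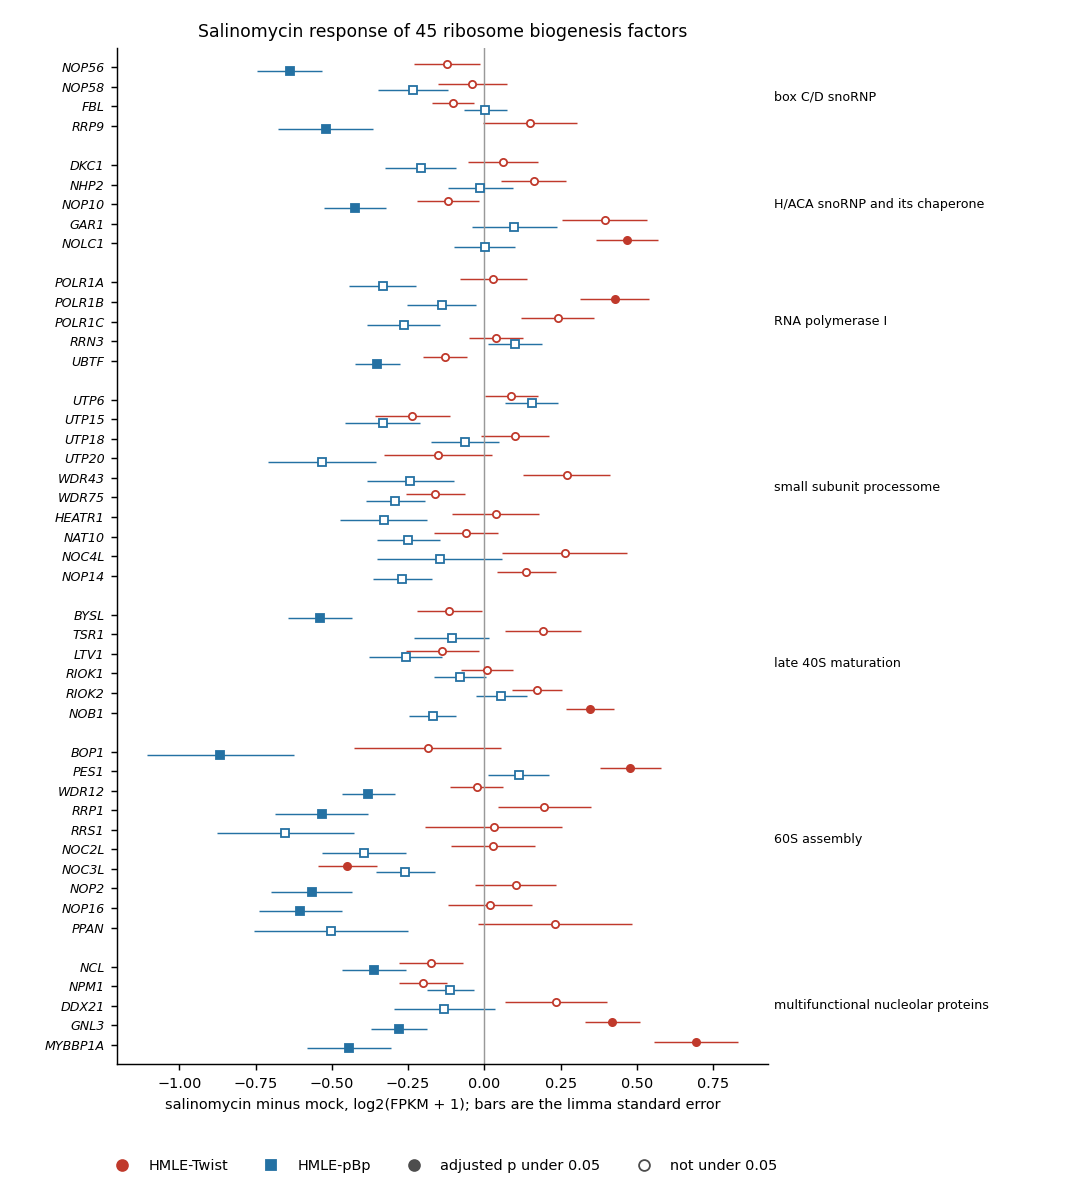
Points are the salinomycin response of each member as a difference of log2(FPKM + 1), circles for HMLE-Twist and squares for HMLE-pBp, with limma standard errors as bars and filled symbols where the adjusted p is under 0.05. Filled squares all lie left of 0, from -0.87 for BOP1 to -0.28 for GNL3, and filled circles lie right of 0 except NOC3L at -0.45.

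The core of RNA polymerase I did not move as a block. POLR1B, the second-largest subunit of the enzyme, was the only one of 5 genes in this group that rose in HMLE-Twist. It measured 9.1, 6.44 and 6.6 FPKM under mock and 11.1, 9.62 and 9.8 under salinomycin in that line, with every treated library above every mock library. The difference was 0.43 ± 0.11 (adjusted p = 0.0154). The call was lost without HMLE-Twist mock replicate 2 or HMLE-Twist salinomycin replicate 1, when the adjusted p reached 0.0682 at most, and with only the compared groups in the fit (adjusted p = 0.0839). In HMLE-pBp the gene measured 17.2, 16.5 and 17.3 FPKM under mock and 16.6, 15 and 14.5 under salinomycin, groups that overlap, with a difference of -0.14 ± 0.11 (adjusted p = 0.408).

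UBTF, the upstream binding factor that keeps rDNA open for transcription, fell in HMLE-pBp. Its libraries there read 20.2, 22.3 and 21.7 FPKM under mock and 15.7, 16.7 and 17.3 under salinomycin, without overlap, for a difference of -0.35 ± 0.07 (adjusted p = 0.00695). In HMLE-Twist they read 22.6, 23.4 and 25.3 FPKM under mock and 21.2, 21.7 and 22 under salinomycin. The treated libraries were again all lower, by a smaller step of -0.13 ± 0.07 (adjusted p = 0.221) that passed the threshold on GC-corrected values (-0.21 ± 0.06, adjusted p = 0.0151). POLR1A, the largest subunit, POLR1C, a subunit shared with RNA polymerase III, and RRN3, the initiation factor TIF-IA, passed in neither line, with HMLE-pBp differences of -0.33, -0.26 and 0.10. With the block POLR1A fell in HMLE-pBp (adjusted p = 0.0158). Of all 45 members 23, POLR1C among them, had a value above 0 in HMLE-Twist and below 0 in HMLE-pBp.

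Box C/D proteins split by line and by gene. NOP56, a core scaffold of these particles, measured 147, 160.1 and 160.0 FPKM under mock and 87.6, 105 and 108 under salinomycin in HMLE-pBp. Every treated library was below every mock library, and the fall, a difference of -0.64 ± 0.11 (adjusted p = 0.00222), was kept in all 12 fits that left out a library. In HMLE-Twist it measured 100.2, 79.1 and 93.5 FPKM under mock and 90.1, 75.7 and 84 under salinomycin, which overlap, for a difference of -0.12 ± 0.11 (adjusted p = 0.446).

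FBL is fibrillarin, the methyltransferase of the same particles and a partner of NOP56 in them. Its libraries held 154, 149 and 163 FPKM under mock and 154, 139.6 and 141 under salinomycin in HMLE-Twist and 146, 134 and 133 FPKM under mock and 137, 139 and 137 under salinomycin in HMLE-pBp. Groups overlapped in both lines, at -0.10 ± 0.07 (adjusted p = 0.308) and 0.00 ± 0.07 (adjusted p = 0.983). Within these particles, a scaffold passed the test in HMLE-pBp and the catalytic subunit did not. NOP58, the scaffold paired with NOP56, changed by -0.23 ± 0.11 (adjusted p = 0.166) in HMLE-pBp, and RRP9, a protein of the U3 particle, fell there by 0.52 (adjusted p = 0.0363). The RRP9 call was lost without HMLE-Twist salinomycin replicate 1, any 1 HMLE-pBp mock library, or HMLE-pBp salinomycin replicate 1 or 2.

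Among the H/ACA genes the chaperone moved in HMLE-Twist and a core subunit in HMLE-pBp. NOLC1 (Nopp140) is a nucleolar and Cajal body protein that binds both snoRNP classes. It measured 51.8, 38.6 and 42 FPKM under mock and 66.7, 57.1 and 59.4 under salinomycin in HMLE-Twist, no value of one group reaching the other, and rose by 0.47 ± 0.10 (adjusted p = 0.00484). In HMLE-pBp it was level, 101, 94.4 and 97.5 FPKM under mock and 96.3, 100.1 and 96.5 under salinomycin, with a difference of 0.00 ± 0.10 (adjusted p = 0.996).

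NOP10, a small structural subunit of H/ACA particles and of telomerase, had 179, 183 and 199 FPKM under mock and 154, 133 and 132 under salinomycin in HMLE-pBp. All 3 treated libraries were lower, and the difference was -0.42 ± 0.10 (adjusted p = 0.0142), lost without HMLE-pBp mock replicate 3. In HMLE-Twist the libraries had 204, 233 and 257 FPKM under mock and 223, 192 and 224 under salinomycin, overlapping, for -0.12 ± 0.10 (adjusted p = 0.428). The pseudouridine synthase DKC1 (dyskerin) passed in neither line, at 0.06 and -0.21, nor did NHP2, at 0.16 and -0.01. With the block DKC1 fell in HMLE-pBp (adjusted p = 0.0434). GAR1, the fourth core protein, stood at 0.39 ± 0.14 (adjusted p = 0.0561) in HMLE-Twist and passed there with the block (adjusted p = 0.00357).

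None of the 10 SSU processome genes passed the test in either line, although 9 of 10 were below 0 in HMLE-pBp, with a median of -0.26. At an unadjusted p under 0.05 none was called in HMLE-Twist, where 4573 of 11964 tested genes were. In HMLE-pBp 6 were lower at that threshold, against 17.9% of tested genes. There limma-voom on the recovered reads called 1 of the 10 lower, UTP20, near the 9.29% of tested genes. The gene with the smallest p in HMLE-pBp was WDR75, a subunit of the complex that docks on the 5′ end of the precursor. Its HMLE-pBp libraries read 27.4, 30.6 and 30.8 FPKM under mock and 23.5, 25.4 and 23.1 under salinomycin, every treated one below every mock one, for -0.29 ± 0.10 (adjusted p = 0.0525). Its HMLE-Twist libraries read 32.7, 25.6 and 27.8 FPKM under mock and 26.4, 23.6 and 26.4 under salinomycin. These overlap, at -0.16 ± 0.10 (adjusted p = 0.248).

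UTP15, another subunit of that docking complex, read 8.82, 6.26 and 7.11 FPKM under mock and 6.05, 5.37 and 6.88 under salinomycin in HMLE-Twist and 8.65, 9.2 and 9.39 FPKM under mock and 6.15, 7.92 and 7.01 under salinomycin in HMLE-pBp. Only in HMLE-pBp were the groups apart, and the differences were -0.24 ± 0.12 (adjusted p = 0.184) and -0.33 ± 0.12 (adjusted p = 0.0788). The lowest HMLE-pBp value was that of UTP20, a large scaffold protein, at -0.53 ± 0.18 (adjusted p = 0.0542). With the block, UTP15, UTP20, WDR75, HEATR1, NAT10 (the acetyltransferase of 18S rRNA) and NOP14 fell in HMLE-pBp, with adjusted p values of 0.0223, 0.00615, 0.0121, 0.0262, 0.0191 and 0.0094. In that fit 19.3% of tested genes fell in HMLE-pBp. WDR43 stood at 0.27 in HMLE-Twist and -0.24 in HMLE-pBp, and passed in HMLE-Twist with the block (adjusted p = 0.0419).

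In late 40S maturation one gene rose in HMLE-Twist and another fell in HMLE-pBp. NOB1 is the endonuclease that makes the final cut at the 3′ end of 18S rRNA. It read 29.4, 27.8 and 31.5 FPKM under mock and 40.1, 36.9 and 36.5 under salinomycin in HMLE-Twist, fully separated, and rose by 0.35 ± 0.08 (adjusted p = 0.00646). In HMLE-pBp it read 46.7, 48.7 and 52.3 FPKM under mock and 45.3, 41.1 and 44.5 under salinomycin, also fully separated but in the other direction, at -0.17 ± 0.08 (adjusted p = 0.145).

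BYSL (bystin), a 40S assembly factor, read 27.8, 27.2 and 28.9 FPKM under mock and 17.5, 19.6 and 19.7 under salinomycin in HMLE-pBp. The treated libraries were all lower, a difference of -0.54 ± 0.11 (adjusted p = 0.00501), kept in all 12 fits that left out a library. In HMLE-Twist it read 21.6, 18.5 and 23.6 FPKM under mock and 21.1, 16.9 and 20.6 under salinomycin, which overlap, at -0.11 ± 0.11 (adjusted p = 0.469). The GTPase-like TSR1, the 40S assembly factor LTV1 and the kinases RIOK1 and RIOK2 passed in neither line, with differences from -0.14 to 0.19 in HMLE-Twist and from -0.26 to 0.05 in HMLE-pBp.

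In the 60S assembly group 5 of 10 members fell in HMLE-pBp, against 9.3% of all tested genes, with a median of -0.52. Falls there numbered 2 of 4 in the box C/D group and 3 of 5 in the group of NCL, NPM1, DDX21, GNL3 and MYBBP1A. BOP1, PES1 and WDR12 form the PeBoW complex, needed to process the 28S and 5.8S precursor, and its 3 members moved in unlike ways. BOP1 had the lowest value of all members at -0.87 ± 0.24 (adjusted p = 0.0271), WDR12 fell by 0.38 (adjusted p = 0.0117), and PES1 was at 0.11 ± 0.10 (adjusted p = 0.454). BOP1 was the least steady of them. Its HMLE-Twist mock libraries read 30.5, 34 and 57.9 FPKM, and its HMLE-Twist difference was -0.19 ± 0.24 (adjusted p = 0.624), not called with the block either (adjusted p = 0.278) but lower on GC-corrected values (-0.37, adjusted p = 0.0202). Its HMLE-pBp call was lost without any of 4 single libraries, namely HMLE-pBp mock replicates 1 and 3 and HMLE-pBp salinomycin replicates 1 and 2.

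PES1 (pescadillo) was the member of the complex that rose in HMLE-Twist. It read 42.8, 39.3 and 50.4 FPKM under mock and 66.4, 58.3 and 60.5 under salinomycin there, with no overlap, for 0.48 ± 0.10 (adjusted p = 0.00414). In HMLE-pBp it read 41.9, 45.5 and 50.9 FPKM under mock and 50.2, 49.4 and 49.7 under salinomycin, which overlap.

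NOP16, a nucleolar 60S factor, read 44.3, 42.8 and 44.8 FPKM under mock and 25.9, 30.4 and 29.7 under salinomycin in HMLE-pBp. The groups lay far apart, and the difference was -0.60 ± 0.14 (adjusted p = 0.0106). In HMLE-Twist it was low throughout, 18.8, 14.3 and 18.9 FPKM under mock and 20.8, 14.1 and 18.1 under salinomycin, and the difference was 0.02 ± 0.14 (adjusted p = 0.946).

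NOP2, the methyltransferase that places a 5-methylcytosine on 28S rRNA, read 45.9, 47.7 and 51.4 FPKM under mock and 30.9, 34.4 and 31.6 under salinomycin in HMLE-pBp and fell there by 0.57 (adjusted p = 0.0125), a call lost without HMLE-pBp mock replicate 3. In HMLE-Twist it read 33.9, 22.5 and 32.2 FPKM under mock and 33.5, 28.1 and 32.6 under salinomycin, groups that overlap, at 0.10 ± 0.13 (adjusted p = 0.623). RRP1, a 60S factor known from its yeast relative, read 37, 36.3 and 46.7 FPKM under mock and 22.4, 27.4 and 32.5 under salinomycin in HMLE-pBp and 21.1, 19 and 25.9 FPKM under mock and 26.3, 22.1 and 27.3 under salinomycin in HMLE-Twist. It fell in HMLE-pBp by 0.53 (adjusted p = 0.0305) and was at 0.20 in HMLE-Twist. The RRP1 call in HMLE-pBp was lost in 4 of 12 fits that left out a library, those without HMLE-pBp mock replicate 2 or 3 or HMLE-pBp salinomycin replicate 1 or 2.

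NOC3L, a factor of 60S precursor export within the nucleus, was the single member that fell in HMLE-Twist. It changed by -0.45 ± 0.10 (adjusted p = 0.00493) there and by -0.26 ± 0.10 (adjusted p = 0.0807) in HMLE-pBp. Its partner NOC2L and the 60S factors RRS1 and PPAN passed in neither line, at -0.39, -0.65 and -0.50 in HMLE-pBp. With the block NOC2L (adjusted p = 0.0143) and RRS1 (adjusted p = 0.00275) fell in HMLE-pBp.

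MYBBP1A and GNL3 moved in opposite directions in the 2 lines. MYBBP1A is a nucleolar protein that represses rDNA transcription and takes part in p53 activation. It read 16.4, 13.1 and 20.1 FPKM under mock and 28.3, 24.8 and 28.1 under salinomycin in HMLE-Twist. All treated libraries were higher, for a rise of 0.69 ± 0.14 (adjusted p = 0.00313). In HMLE-pBp it read 40.8, 41.3 and 48 FPKM under mock and 27.8, 32.3 and 35 under salinomycin, all treated libraries lower, a difference of -0.44 ± 0.14 (adjusted p = 0.0428).

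GNL3 (nucleostemin), a GTP-binding protein that shuttles between nucleolus and nucleoplasm and binds MDM2, read 75.3, 57.1 and 67.9 FPKM under mock and 88.5, 90.9 and 87.7 under salinomycin in HMLE-Twist. The treated libraries were again all higher, at 0.42 ± 0.09 (adjusted p = 0.00513). In HMLE-pBp it read 67.5, 72.6 and 74.5 FPKM under mock and 59.3, 58.8 and 58 under salinomycin, all treated libraries lower, at -0.28 ± 0.09 (adjusted p = 0.0497). That fall was close to the threshold and passed in only 2 of the 12 fits that left out a library, those without HMLE-Twist mock replicate 1 or 2, and MYBBP1A's passed in 4, those without an HMLE-Twist mock library or HMLE-pBp salinomycin replicate 3.

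NCL, an abundant RNA-binding protein of the nucleolus, had 423, 425 and 417 FPKM under mock and 289, 349.9 and 347 under salinomycin in HMLE-pBp and fell by 0.36 (adjusted p = 0.0321), without overlap. That call was lost without any 1 of the HMLE-pBp mock libraries or without HMLE-pBp salinomycin replicate 1. In HMLE-Twist it had 626, 467 and 548 FPKM under mock and 496, 454 and 495 under salinomycin, which overlap, at -0.17 ± 0.11 (adjusted p = 0.251). NPM1 and the helicase DDX21 passed in neither line. NPM1 was at -0.20 in HMLE-Twist, where it fell with the block (adjusted p = 0.0300), and -0.11 in HMLE-pBp, and DDX21 was at 0.23 and -0.13.

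**Figure D3:**
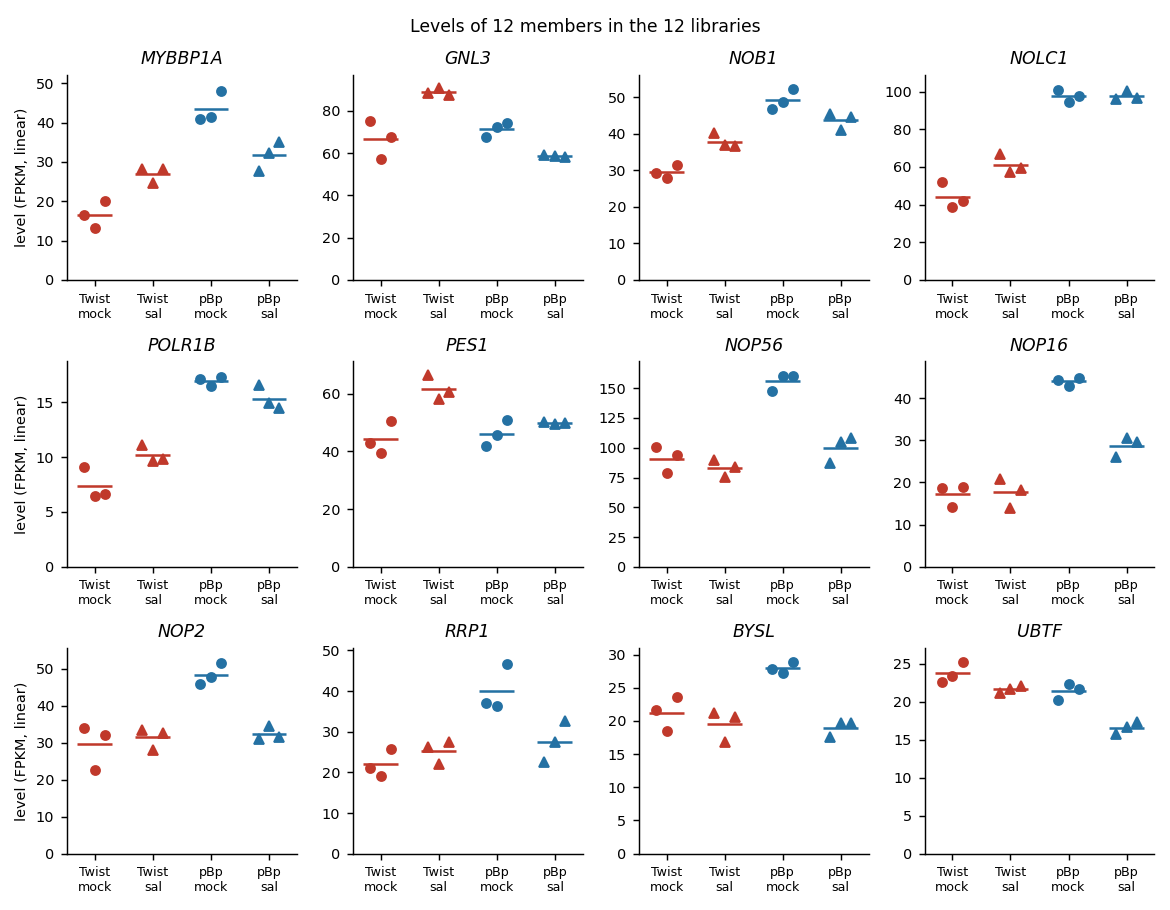
Each panel gives the FPKM of 1 member in the 12 libraries on a linear axis from 0, circles for mock and triangles for salinomycin, with a bar at each group's mean of 3 libraries. MYBBP1A and GNL3 rise from mock to salinomycin in HMLE-Twist and fall in HMLE-pBp, and the groups of NOP56, NOP16, NOP2, RRP1 and BYSL are apart in HMLE-pBp and overlap in HMLE-Twist.

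The difference between the 2 responses was tested directly as an interaction. For 8 members the response was higher in HMLE-Twist than in HMLE-pBp, and for none was it lower, where 7.01% and 6.72% of tested genes were called higher and lower. The member median of this difference was 0.36 against -0.00 for all genes, and 40 of 45 members were above 0. At an unadjusted p under 0.05, 17 were higher and 0 lower, against 15.4% and 15.6% of tested genes, and limma-voom called 8 higher and 0 lower, against 6.17% and 4.94%. With the block within lines 20 members were called, all higher, against 17% and 15.7% of tested genes called higher and lower. On GC-corrected values 12 were called, all higher, against 10.8% and 10.5%. With both the GC correction and the block 29 were called higher and 1 lower, FBL (-0.25, adjusted p = 0.0143), against 20.1% and 21.1%. The responses share no library, and across the 45 members they correlated with Pearson's r = 0.31 and Spearman's rho = 0.35, a description over genes of the same libraries.

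Among the called members MYBBP1A had the largest difference, 1.14 ± 0.19 (adjusted p = 0.00409), which stayed at 0.92 ± 0.17 after GC correction. It was followed by RRP1 at 0.73 ± 0.22 (adjusted p = 0.0441), GNL3 at 0.70 ± 0.13 (adjusted p = 0.00577), NOP2 at 0.67 ± 0.19 (adjusted p = 0.0356) and POLR1B at 0.57 ± 0.16 (adjusted p = 0.0376). The list ended with NOP56 at 0.52 ± 0.15 (adjusted p = 0.0432), NOB1 at 0.51 ± 0.11 (adjusted p = 0.0118) and NOLC1 at 0.47 ± 0.14 (adjusted p = 0.0484). These genes differ in how the gap arose. For NOLC1, NOB1 and POLR1B the HMLE-Twist rise passed and the HMLE-pBp change did not, for NOP56, NOP2 and RRP1 it was the reverse, and for MYBBP1A and GNL3 both passed. In HMLE-pBp the fall of GNL3 no longer passed with a pseudocount of 0.1 (adjusted p = 0.0515), without the level filter (0.0537), with TMM factors (0.0572) or in limma-voom (0.0532). Without the level filter those of MYBBP1A, NCL and RRP9 were lost too (adjusted p = 0.0592, 0.0523 and 0.0535), and that of RRP1 with only the compared groups in the fit (adjusted p = 0.0631). The differences of NOP56, NOLC1 and RRP1 were not called without the level filter (adjusted p = 0.0557, 0.0577 and 0.0634), nor was that of NOLC1 with a pseudocount of 0.1 (0.0518) or with no gene left out (0.0504).

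Single libraries decided much of this list. MYBBP1A, GNL3 and NOB1 were called in all 12 fits that left out a library, while the other 5 were called in 1 to 4 of the 12, and each was lost without any 1 of the HMLE-pBp mock libraries. The whole count fell to 3 without HMLE-Twist salinomycin replicate 1 or 3, HMLE-pBp mock replicate 1, 2 or 3, or HMLE-pBp salinomycin replicate 2. Over all tested genes 415 to 723 were then called higher, against 839 of 11964 with every library. The member count fell to 4 without HMLE-Twist mock replicate 2 (490 genes higher) or HMLE-pBp salinomycin replicate 1 (675). It was 5 without HMLE-pBp salinomycin replicate 3 (949). Without HMLE-Twist mock replicate 3 it rose to 13 (1192), and without HMLE-Twist mock replicate 1 to 16 (984). On GC-corrected values NOP56 (0.40 ± 0.15, adjusted p = 0.0781) and NOP2 (0.56 ± 0.19, adjusted p = 0.0522) were no longer called. The GC content of the transcript correlated with this difference by r = 0.56 over the 45 members and r = 0.39 over 10776 genes (across genes, which are not independent replicates).

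Without salinomycin, after 24 h with DMSO, the lines already differed. Under mock 26 of 45 members were lower in HMLE-Twist than in HMLE-pBp and 5 were higher, where 37.3% of tested genes were lower and 36% higher, 73.3% in all. The member median was -0.37 log2 units against -0.00. The 5 higher members were FBL, NOP10, UTP18, NOC3L and NCL, at 0.18, 0.30, 0.39, 0.33 and 0.36. Scaling by total reads in place of the median gene shifts the median of all genes by 0.14 in this comparison, and the split of member calls then becomes 20 lower and 8 higher, against 31.5% and 43.3% of tested genes. On GC-corrected values, whose all-gene median is 0.11, it was 22 lower and 8 higher, against 34.1% and 44.9% of the genes.

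The widest gaps under mock were those of MYBBP1A at -1.35 ± 0.14 (adjusted p = 2.11e-06), NOP16 at -1.31 ± 0.14 (adjusted p = 2.76e-06), NOLC1 at -1.14 ± 0.10 (adjusted p = 5.61e-07) and POLR1B at -1.12 ± 0.11 (adjusted p = 2.11e-06). For each of the 4 genes all HMLE-Twist mock libraries lay below all HMLE-pBp mock libraries, and the calls held in all 12 fits that left out a library. As an example, NOP16 read 18.8, 14.3 and 18.9 FPKM in HMLE-Twist mock and 44.3, 42.8 and 44.8 in HMLE-pBp mock. After GC correction the gaps were -0.97, -1.06, -1.11 and -1.17.

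Under salinomycin the member median of the line difference was -0.04 against 0.01 for all genes. There 7 members were higher and 7 lower in HMLE-Twist, against 31.3% and 32.1% of tested genes, 63.4% in all. With scaling by total reads, which shifts the all-gene median by 0.14, the split was 15 higher and 5 lower, against 40.5% and 26.2% of tested genes. On GC-corrected values, whose all-gene median is 0.11, it was 14 higher and 6 lower, beside 4656 higher and 3333 lower of 10776 genes. The direction of the split thus depends on the scaling and the correction, and under both scalings each count is below its background share. The line comparisons use the same libraries as the responses, so the narrower gap under salinomycin restates the difference of responses and adds no support to it. NOP16, NOLC1 and POLR1B were still lower in HMLE-Twist, at -0.68 ± 0.14 (adjusted p = 0.000843), -0.67 ± 0.10 (adjusted p = 8.3e-05) and -0.55 ± 0.11 (adjusted p = 0.00107). MYBBP1A was at -0.22 ± 0.14 (adjusted p = 0.188), its treated groups overlapping, 28.3, 24.8 and 28.1 FPKM in HMLE-Twist and 27.8, 32.3 and 35 in HMLE-pBp. GNL3, which had not differed beyond the threshold under mock (-0.11 ± 0.09 (adjusted p = 0.307)), was higher in HMLE-Twist under salinomycin (0.59 ± 0.09 (adjusted p = 0.0001)).

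**Figure D4:**
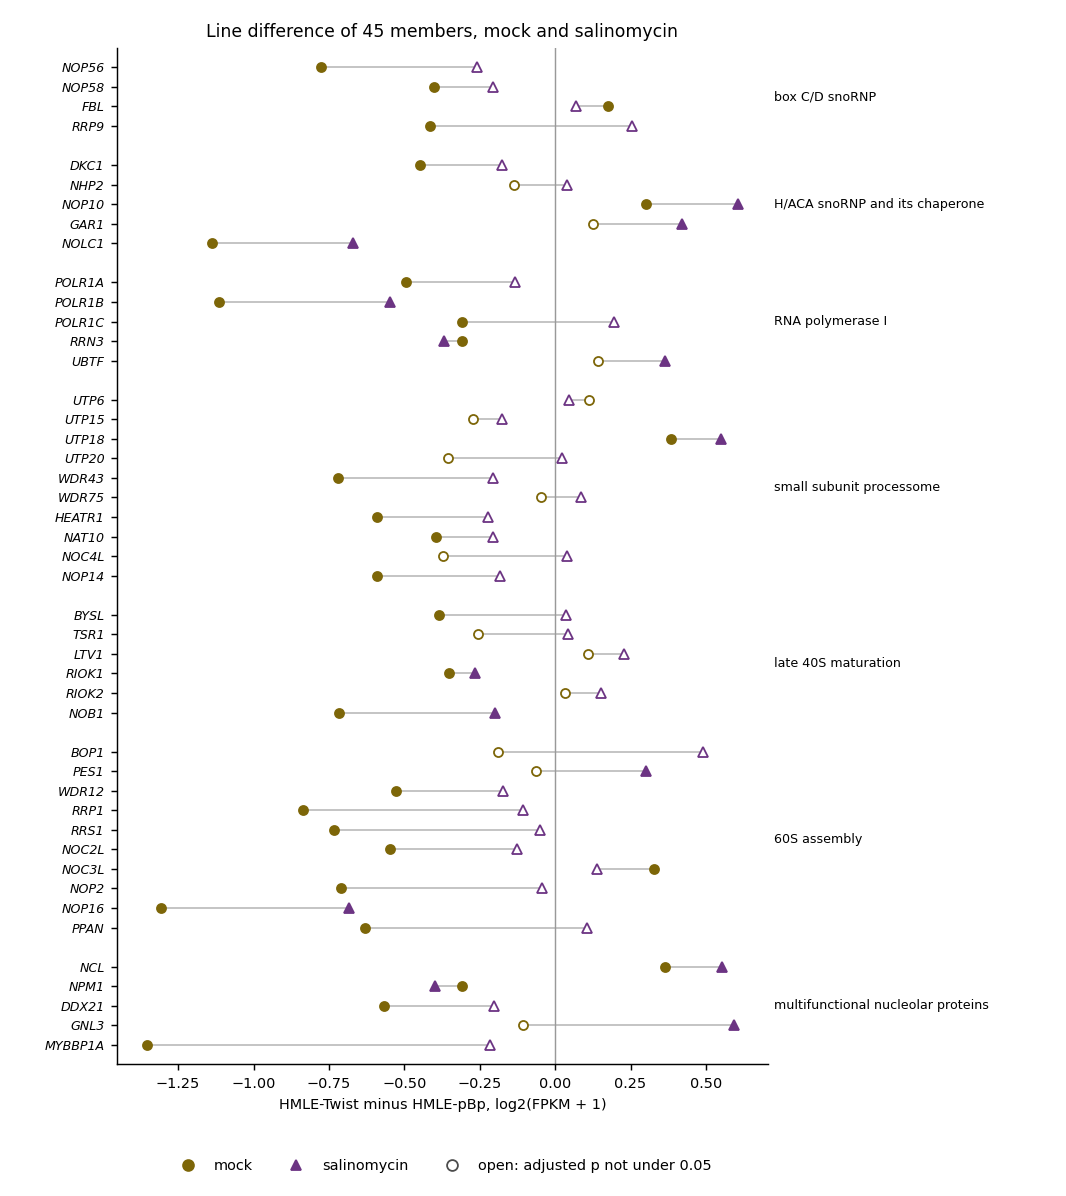
For each member a line joins the HMLE-Twist minus HMLE-pBp difference of log2(FPKM + 1) under mock (circle) and under salinomycin (triangle), filled where the adjusted p is under 0.05. For 40 of 45 members the triangle lies to the right of the circle, and the longest line is that of MYBBP1A, from -1.35 to -0.22.

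Median responses to salinomycin of members with and without the E-box were set side by side. In HMLE-pBp 6 of the 17 members with the motif fell, with a median of -0.26. Of the 24 without it 6 fell, with a median of -0.28, against 9.3% of all tested genes. In HMLE-Twist the medians were 0.10 and 0.04. In the line comparison under mock the medians were -0.36 with and -0.36 without. There 4 members with the motif were higher and 8 lower in HMLE-Twist, against 1 higher and 15 lower without it. Of all tested genes 36% were higher and 37.3% lower. Under salinomycin the medians were 0.07 with and -0.13 without, and 5 members with the motif were higher and none lower. Without it 2 were higher and 6 lower, and of all tested genes 31.3% were higher and 32.1% lower. These are counts over few genes with no test, and other scalings were not tried for them.

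Other genes of the pathway were listed by name, 101 of them, of which 95 could be tested. In HMLE-pBp 19 fell, 20.0%, and 1 rose, against 9.3% and 9.65% of all tested genes, with a median of -0.17. The lowest were CD3EAP, a RNA polymerase I subunit, at -0.89 ± 0.10 (adjusted p = 0.000188) and the helicase DHX37 at -0.73 ± 0.15 (adjusted p = 0.00552). RIOK3, an atypical kinase of cytoplasmic 40S maturation, was the 1 that rose, at 0.81 ± 0.12 (adjusted p = 0.000875).

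In HMLE-Twist 12 of these genes rose and 7 fell, 12.6% and 7.37%, against 12.8% and 13.6% of all tested genes, with a median of 0.03. The highest were RRP12, a factor of subunit export, at 0.77 ± 0.14 (adjusted p = 0.00167) and NOL6, an SSU processome protein, at 0.53 ± 0.10 (adjusted p = 0.0029). The lowest were RRP36 at -0.37 ± 0.08 (adjusted p = 0.00392) and the RNA polymerase I subunit TWISTNB at -0.37 ± 0.12 (adjusted p = 0.0457). In the difference of responses 11 were higher in HMLE-Twist and 2 lower, against 7.01% and 6.72% of tested genes. Under mock 38 were lower and 16 higher in HMLE-Twist, against 37.3% and 36% of tested genes, so that the lower share is near the background and the higher one, 16.8%, below it. Under salinomycin 12 were lower and 17 higher, 12.6% and 17.9%, both below the 32.1% and 31.3% of tested genes. No other scaling was tried for this list.

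Several members overlap a gene on the other strand that the tables also list: NHP2, PES1, WDR12, HEATR1, NOC2L, POLR1C, TSR1, RIOK1, NOP16, GNL3, MYBBP1A and NOP14. UBTF, NOB1 and RIOK2 overlap opposite-strand noncoding genes of the annotation that the tables do not list. The library kit marks strand, but whether counting used it is not given in the sources used here. If it did not, reads from both strands of the shared stretch cannot be told apart in these genes. Their overlapping partners include SPNS2 for MYBBP1A, GLT8D1 for GNL3, TCN2 for PES1 and HIGD2A for NOP16.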

How the data were processed

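Stranded mRNA libraries of 12 cultures were analysed, 3 per group. Per the submitters' processing notes, the authors used DESeq2 1.1.0 and hg19. No source used here names the aligner, the counter or its strand setting. The authors deposited the 2 mock tables as FPKM, whose low values step by whole reads. The 2 salinomycin tables were deposited as shrunken log2 values (rlog), although they are named FPKM. Reads were recovered from both kinds. For the mock tables a gene length was sought at which the gene's reads were whole within 0.01 read. One was found for 100% of genes with mock reads. The length was chosen to meet this tolerance, so the share is no separate check. Of salinomycin values 98.5% (HMLE-Twist) and 96.0% (HMLE-pBp) lay within 0.1 read of a whole number. For genes averaging over 10000 reads, NCL and NPM1 among them, these shares were 80.8% and 56.7%. Genes for which the multiple of the read step was not settled (2236) were left out, none of them a member. Only 179 of these had over 100 mock reads. The recovered reads are an inference from rounded values, and the relative scale of the mock and salinomycin tables rests on it.

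From these reads, FPKM were rebuilt on one scale for the 12 libraries, with size factors that set the median ratio of genes to their geometric mean to one value. Genes with at least 1 FPKM in at least 3 libraries (11964) were fitted in limma 3.58.1 (R 4.3.3) on log2(FPKM + 1), with all 4 groups in one model, Benjamini-Hochberg adjustment over all genes tested and a threshold of 0.05. The fit was tested on simulated data.

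The members and gene lists were chosen with earlier results of these data known. All 45 members are accounted for. Values per library are given for the smallest p of each of 7 role groups in each response, members called in the difference of responses with an absolute log2 difference of at least 0.3, and the 4 largest line differences under mock. Of the other pathway genes, the 2 highest and 2 lowest called per response are named. The library values of BOP1 are given outside that rule, after they were seen.

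Same-numbered libraries of one line deviated together from their group means, with correlations of 0.457, 0.433 and 0.724 in HMLE-Twist and 0.541, 0.230 and 0.608 in HMLE-pBp. The numbers were therefore taken to pair the libraries of each response, an inference, since the labels give only a number. Unlike-numbered pairs from any groups reached 0.280 at most, above the 0.230. Between lines same-numbered libraries correlated at 0.499 to 0.668 for number 3, 0.203 to 0.436 for number 1 and 0.0373 to 0.179 for number 2. Of all same-numbered pairs from different groups 15 of 18 passed 0.1, against 5 of 36 pairs with unlike numbers. Part of the replicate deviation was thus shared between the lines. GC content was that of the longest RefSeq-tagged transcript in GENCODE release 29, and its trend per library was removed with a spline of 5 degrees of freedom. Promoter windows are from RefSeq. One leukocyte marker of the list is not reported here.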

Additional observations from a re-analysis of the deposited data

Results flagged for a closer look

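For 8 members the salinomycin response in HMLE-Twist differed from that in HMLE-pBp by the interaction term of the limma fit, and every one of them was higher in HMLE-Twist. The differences on the log2(FPKM + 1) scale were 1.14 for MYBBP1A, 0.70 for GNL3, 0.51 for NOB1, 0.67 for NOP2, 0.57 for POLR1B, 0.52 for NOP56, 0.73 for RRP1 and 0.47 for NOLC1. MYBBP1A, GNL3 and NOB1 kept the call whichever of the 12 libraries was left out and on GC-corrected values. The groups of 3 libraries are too small for a test of single outlying libraries.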

How the results depend on the processing

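Among 784 recomputed values of called members none changed direction, and 107 no longer passed the threshold. The replicate blocks, the fit without a level filter and that of only the compared groups leave each difference as it was. A library of the other line enters the size of a single line's difference only through the scaling. In those fits the direction could not, or could hardly, change, so its constancy there is no support. The other line's libraries do enter the standard error and p of that difference, because all 4 groups share the estimate of each gene's spread. Leaving out 1 library in turn moved the counts over these ranges: 6 to 12 members and 2205 to 3475 genes for the HMLE-Twist response, 5 to 23 and 1139 to 3163 for the HMLE-pBp response, and 3 to 16 and 776 to 2416 for the difference of responses. Without HMLE-Twist mock replicate 1 and HMLE-pBp salinomycin replicate 1 together, the member counts were 13, 14 and 16. Beside them 3920, 2118 and 1857 of 11885 tested genes were called. With the replicate block planned at first, over all 4 groups, 4010 genes were called in the HMLE-pBp response, and 18 members and 3498 genes in the difference. With the replicate block within each line, 4848 genes were called in the HMLE-Twist response. That block called 23 members and 4387 genes in the HMLE-pBp response, and 20 members and 3916 genes in the difference. Of 10776 genes with GC-corrected values, 12 members and 3954 genes were called in the HMLE-Twist response. In the HMLE-pBp response they were 25 members and 3459 genes. GC-corrected values with the replicate block within each line called 17 members and 5690 genes, 32 members and 5295 genes, and 30 members and 4448 genes in the 3 comparisons in that order. Without a filter on level, 5 members and 1587 of 15933 tested genes were called in the difference. More genes are then tested. For the other moves the cause was not tested. The block, GC correction, limma-voom and the removal of both libraries were chosen after seeing the data. The edgeR and DESeq2 alternatives were not run. The line counts stayed within 1.5 times under every alternative run. With 3 libraries per group, changes under about 1.5-fold are often not detectable: in data simulated for the HMLE-Twist response, with 11986 genes, 23 of 50 genes changed 1.5-fold were called.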

Other observations

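The 45 members together took 0.822%, 0.797% and 0.813% of recovered reads in HMLE-pBp mock replicates 1 to 3 and 0.684%, 0.691% and 0.696% in the salinomycin libraries of that line. These groups do not overlap. In HMLE-Twist they took 0.832%, 0.666% and 0.769% under mock and 0.774%, 0.701% and 0.739% under salinomycin, which overlap, with the mock libraries spread wider than the treated ones. These shares lean on NPM1 and NCL, the most abundant members, and were given no test.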
